A study of Homo sapiens with 4 samples.

Results

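Small nucleolar RNA (snoRNA) clusters were taken from a crosslinking and immunoprecipitation (eCLIP) study of ADAR, the enzyme that turns adenosine into inosine in double-stranded RNA. The study held 2 libraries immunoprecipitated with an antibody against ADAR1 (IP) and 2 input libraries that were not immunoprecipitated. All 4 came from K562, a human chronic myeloid leukaemia line, with no genetic change or treatment named, and the cells were crosslinked at 254 nm and 400 mJ/cm2. The series concerns the prediction of protein-bound stretches of RNA. Whether replicates 1 and 2 were grown as separate cultures is not stated, and the spread between them may therefore be technical only.

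A cluster is a stretch of IP reads called by the authors, and a member is a cluster whose midpoint lay in the GRCh38 span of a RefSeq gene of biotype snoRNA. Replicate 1 had 692 members among 534161 clusters, in 299 snoRNA genes. Replicate 2 had 372 among 155848, in 251 genes. The authors' list of peaks reproducible between replicates had 0 among 1717. Of 1199 snoRNA genes in the annotation, 304 had a cluster in at least 1 replicate: 163 of 357 SNORD genes, 116 of 182 SNORA genes, 25 of 658 predicted genes with LOC symbols and 0 of 2 genes of the RNU105 group. The 29 SCARNA genes are annotated with another biotype, so 0 of them met the rule, and their clusters (125 in replicate 1 and 65 in replicate 2) served as the comparison.

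snoRNAs are short, stable nuclear RNAs, most of them cut out of introns of a host transcript. SNORD symbols name the box C/D class, which binds fibrillarin and guides ribose methylation of ribosomal and spliceosomal RNA. SNORA symbols name the box H/ACA class, which folds into hairpins, carries an ACA box close to its 3′ end, binds dyskerin and guides the change of uridine to pseudouridine. SCARNA symbols name relatives of both classes that act in Cajal bodies. Reads of a mature snoRNA and of the host intron that contains it cannot be told apart in these lists.

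Sequences of 5 SNORA genes could be shown in part, because a microRNA hairpin of RefSeq (GRCh38.p14) overlaps each of them. They are shown because they belong to the family whose clusters lay furthest below input. In the first 3, the capitals mark the letters ACA that begin where the box is expected, with 3 bases left to the annotated 3′ end of the snoRNA.
SNORA36B, hairpin MIR664A, chr1:220200538-220200619, minus strand: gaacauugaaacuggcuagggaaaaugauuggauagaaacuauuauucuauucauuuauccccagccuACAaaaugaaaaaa
SNORA84, hairpin MIR3651, chr9:92292458-92292547, minus strand: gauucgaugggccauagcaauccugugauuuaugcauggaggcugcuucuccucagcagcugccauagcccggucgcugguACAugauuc
SNORA36A, hairpin MIR664B, chrX:154768596-154768656, plus strand: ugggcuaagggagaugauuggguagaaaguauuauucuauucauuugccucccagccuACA
In the other two, which do not reach the 3′ end of the snoRNA in that way, the capitals mark the bases covered by clusters in both replicates.
SNORA81, hairpin MIR1248, chr3:186786672-186786777, plus strand: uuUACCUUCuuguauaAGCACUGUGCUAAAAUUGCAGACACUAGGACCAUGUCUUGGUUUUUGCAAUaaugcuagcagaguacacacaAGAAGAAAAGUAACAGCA
SNORA2C, hairpin MIR1291, chr12:48654444-48654530, minus strand: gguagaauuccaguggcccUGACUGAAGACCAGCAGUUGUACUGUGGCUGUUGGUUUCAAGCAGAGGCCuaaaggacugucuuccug

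The letters ACA, read on the strand of the hairpin only, occur somewhere in 63.0% of the 1562 hairpins of the table. At the same distance from the hairpin's end they occur in 1.47% (for SNORA36B), 1.73% (SNORA84) and 1.41% (SNORA36A). All 5 snoRNAs lay below input. The median log2 fold of IP over input was -3.10 in replicate 1 and -2.49 in replicate 2 for SNORA36B. It was -3.33 and -3.20 for SNORA84, and -4.64 and -4.88 for SNORA36A. For SNORA81 it was -2.20 and -1.79, with 76 bases of the hairpin covered in both replicates. For SNORA2C it was -2.11 and -2.01, with 50 such bases. These medians are of the whole snoRNA. Clusters with their midpoint in the hairpin had medians of -2.14 and -1.17 for SNORA81 and -3.33 and -3.85 for SNORA84. SNORA36A had 0 such clusters in replicate 2. Clusters in the other microRNA genes had a median log2 fold of 1.59 (426 clusters) and 2.18 (120 clusters). Hairpins inside a snoRNA, where they had a cluster, thus lay on the opposite side of 0 from most other hairpins. Input reads were not matched: clusters in microRNA genes had a median of 1 and 2, SNORA clusters 173 and 324.

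All folds are the authors' deposited values per cluster. The lists hold 1 value per cluster and none per library, so medians, ranges and counts are given beside those of all clusters, with no test. The authors' −log10 p is 0 for every negative fold, and hence measures only excess in the IP. The folds were ratios of whole reads plus a constant, which put IP depth at 3.33 times that of input in replicate 1 and at 0.553 times in replicate 2. Read numbers below come from the reduced ratio, and the true reads may be any whole multiple of them. The 95% intervals are exact binomial ones on those reads. They cover counting error only, and are at their widest because the ratio is reduced. Clusters were called on IP reads, so a snoRNA without IP reads has no cluster, whatever its input. A list that starts from the IP thus holds no value for such genes.

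snoRNA clusters were rarely enriched and mostly lay below input. Clusters that reached 3 or more in both log2 fold and −log10 p were called enriched. In replicate 1, 2 of 692 snoRNA clusters were enriched, where 1.39% of all clusters were. In replicate 2, 0 of 372 were enriched, where 12.8% of all clusters were. An upper limit of 3 counts over the 372 clusters is a share of 0.806%. That limit treats clusters as independent, although they lie in 251 genes and share their libraries. No snoRNA gene was enriched in both replicates, beside 13.9% of the 13271 genes of any biotype with clusters in both. At least 1 replicate called 2 snoRNA genes, beside 28% of 21094 genes. For these shares a gene counted as enriched if any cluster in its whole span was. Longer genes can hold many more clusters than a snoRNA gene, so the gene shares are not like for like. At a −log10 p of 3 or more, whatever the fold, there were 38 of 692 snoRNA clusters, in 23 genes, in replicate 1. In replicate 2 there were 7 of 372, in 4 genes. The share of all clusters at that limit was not counted, so whether these are many or few is not shown.

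The opposite direction was common. Folds below 0 were found for 577 snoRNA clusters (83.4%) in replicate 1, beside 47% of all clusters, and for 348 (93.5%) in replicate 2, beside 9.68%. A cluster was called low at a log2 fold of -1 or less, a limit chosen after the values were seen, at which scaled IP reads are at most 50% of scaled input reads. Low clusters numbered 421 (60.8%) in replicate 1, beside 15.1% of all clusters, and 312 (83.9%) in replicate 2, beside 2.46%. All clusters had a median of 1 and 2 input reads, and snoRNA clusters 107 and 243.5. At 100 to 999 input reads, 27.9% and 50.3% of clusters outside snoRNA genes were low. SNORD clusters there were at 64.0% and 85.4%, SNORA clusters at 97.3% and 93.4%. At 1000 or more, 60.6% and 65.0% were low outside, and 100% in both families. At 1 to 9 and 10 to 99 reads of replicate 1, SNORD clusters (7.27% and 22.4%) were low less often than those outside (13.8% and 40.0%). The median log2 fold of snoRNA clusters was -1.44 and -2.34, that of all clusters 0.07 and 1.85.

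The families differed in level. SNORA clusters had a median log2 fold of -3.15 in replicate 1 (308 clusters in 115 genes) and -3.02 in replicate 2 (168 clusters in 103 genes). SNORD clusters had a median of -0.57 (361 clusters in 161 genes) and -1.83 (200 clusters in 144 genes). Low clusters made up 90.3% and 94.0% of SNORA clusters, and 38.5% and 77.0% of SNORD clusters. The 95% interval of the fold lay wholly below 0 for 278 and 158 SNORA clusters and for 183 and 158 SNORD clusters. It lay wholly above 0 for 6 and 3 SNORA clusters and for 40 and 3 SNORD clusters. The constant that scales a list is the same for every cluster in it, so the gap between the families does not depend on it.

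**Figure D1:**
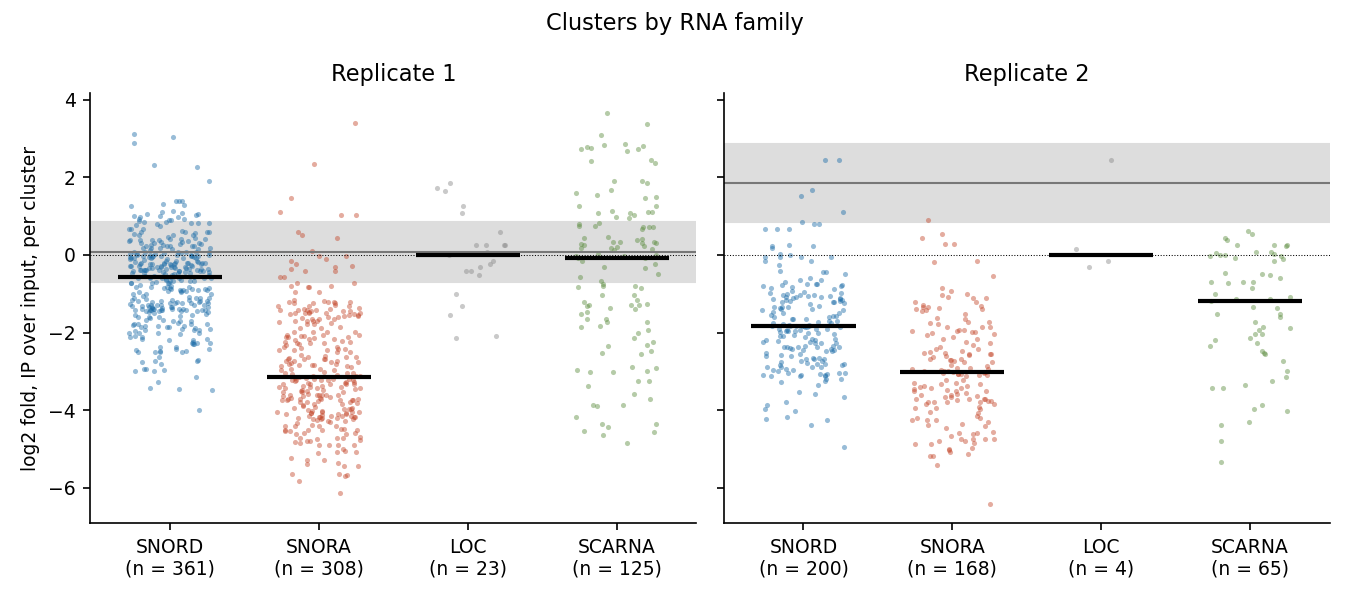
The vertical axis is the authors' log2 fold of IP over input and each point is a cluster, by family and replicate; black bars are medians, and the grey line and band are the median and the middle 50% of all clusters of the list. SNORA clusters sit lowest in both replicates, at medians of -3.15 and -3.02, and in replicate 2 nearly all snoRNA clusters lie under the grey band.

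The few clusters in predicted LOC genes lay near 0, with a median log2 fold of 0.00 in both replicates. They numbered 23 and 4 and rested on few reads, with a median of 2 and 5.5 input reads. Clusters of SNORD genes had a median of 73 and 191 input reads, and clusters of SNORA genes 173 and 324.

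By their lowest cluster, the 5 genes with the lowest folds of each replicate were all SNORA genes, named here after their values were seen. In replicate 1 they were SNORA65, SNORA54, SNORA7B, SNORA14A and SNORA3B. In replicate 2 they were SNORA54, SNORA21, SNORA50C, SNORA65 and SNORA71B. SNORA54 (chr11:2963771-2963893, minus strand by its clusters) had 3 clusters in replicate 1, at log2 folds of -5.83, -5.66 and -5.39 from its 3′ to its 5′ side. In replicate 2 it had 2, at -6.41 and -5.12. The lowest rested on 11 IP reads against 1689 input reads, with a 95% interval of -7.41 to -5.57. Thus all 5 clusters of SNORA54 lay beyond -5 in both replicates.

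SNORA65 (chr9:127448502-127448637, minus strand) had log2 folds of -6.12 and -5.65 in replicate 1. The first rested on 18 IP and 377 input reads, the other on 147 and 2221. In replicate 2 a single cluster over 134 of its 136 bases was at -5.17, from 111 IP and 7225 input reads. SNORA65 was therefore abundant in input, and its low folds did not rest on thin counts.

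By gene, using the median over a gene's clusters, SNORA3A was at a log2 fold of -5.43 and -5.00, SNORA14A at -5.47 and -4.88, SNORA50C at -4.85 and -5.18, and SNORA21 at -4.65 and -4.99. SNORA7B was at -4.47 and -3.76 and SNORA3B at -4.87 and -4.48. SNORA71B was at -4.81 and -4.91 and SNORA71D at -4.98 and -4.71. SNORA3A and SNORA71D lie outside the lists of 5. The other SNORA71 genes were SNORA71A, at -4.33 and -4.00, SNORA71E, at -3.76 and -3.30, and SNORA71C, at -1.46 and -1.76, so members of this group were spread widely. Where snoRNA genes are similar in sequence, values of single genes are uncertain, since the sources used here do not say how reads mapping to several places were counted.

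SNORA genes above input were few: the median log2 fold of the gene was above 0 for 7 of 115 in replicate 1 and 1 of 103 in replicate 2. In replicate 1 they were SNORA62, SNORA103, SNORA86, SNORA91, SNORA94, SNORA74A and SNORA63. Of these, 5 had no cluster in replicate 2, and their replicate 1 ratios reduced to 1 to 5 input reads, of which the true reads may be a multiple. SNORA63 was at 0.08 in replicate 1 and -1.55 in replicate 2. SNORA74A, also known as U19, was above 0 in both.

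SNORA74A (chr5:139278780-139278979, plus strand, 200 bases) had the widest spread inside a gene in both replicates. In replicate 1 its 6 clusters, read from the 5′ end, were at log2 folds of 1.10, 1.03, 1.04, -0.23, -0.15 and -3.18. In replicate 2 its 6 clusters were at 0.89, 0.45, 0.29, 0.29, -1.04 and -2.83. In both, the clusters nearest the 5′ end lay above input and the cluster nearest the 3′ end lay well below it. The first cluster of replicate 1 rested on 690 IP and 97 input reads and the last on 29 and 79, with intervals of 0.79 to 1.42 and -3.85 to -2.55. In replicate 2 the first rested on 194 IP and 189 input reads and the last on 44 and 567, with intervals of 0.60 to 1.19 and -3.31 to -2.39. SNORA74B, a related gene, was at a median of -0.83 and -1.01.

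Other genes varied less along their length. Among genes with at least 2 clusters, the range of folds within a gene had a median of 0.46 in replicate 1 (173 genes) and 0.63 in replicate 2 (76 genes). When each snoRNA was cut into 3 equal parts along its strand, the median log2 fold of SNORA clusters was -2.89 and -2.84 in the part at the 5′ end and -3.21 and -3.79 in the part at the 3′ end. For SNORD clusters it was -0.60 and -1.12 at the 5′ end and -0.65 and -2.25 at the 3′ end. The 3′ part was thus lower than the 5′ part in both families and both replicates, by little for SNORD in replicate 1. In replicate 2, 70% of SNORD clusters had their midpoint in the middle part, since a single cluster often spans the RNA.

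Both enriched clusters were in replicate 1. The enriched cluster of SNORA62 (chr3:39411054-39411207, plus strand) was at a log2 fold of 3.40 and a −log10 p of 5.45. It spanned chr3:39411161-39411212 and so ran past the annotated 3′ end of the gene. Its reduced ratio was 35 IP reads to 1 input read, with an interval of 0.82 to 8.74, and SNORA62 had no cluster in replicate 2. The enriched cluster of SNORD101, in the host RPS12, covered the last 2 bases of the gene, chr6:132815378-132815379. Its log2 fold was 3.04, from 219 IP and 8 input reads, with an interval of 2.04 to 4.27. The other 4 clusters of SNORD101 in replicate 1 were between -0.59 and -0.09, and its 1 cluster in replicate 2, over 69 bases, was at -1.76. Each enriched cluster thus lay at the 3′ end of its gene, and neither gene was enriched in the other replicate.

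SNORD genes spread around input in replicate 1 and mostly below it in replicate 2. The gene medians had a median of -0.42 (161 genes) and -1.82 (144 genes), and 59 and 112 genes were low. SNORD38A, which lies beside its relative SNORD38B, had clusters at -3.48 and -3.42 in replicate 1 and at -4.95 in replicate 2. SNORD38B was at a median of -3.45 and -4.37. SNORD6 was at -2.96 and -4.23, SNORD55 at -2.88 and -3.59, SNORD21 at -2.86 and -4.01, and SNORD30 at -2.81 and -4.26. These 6 were among the lowest SNORD genes in both replicates and were chosen after their values were seen.

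There were 8 snoRNA genes with a median above 0 in both replicates: SNORA74A and 7 SNORD genes. SNORD77, in the host GAS5, had 1 cluster in each, at a log2 fold of 2.88 (270 IP and 11 input reads, interval 2.02 to 3.90) and 0.68 (23 and 26 reads, interval -0.20 to 1.54). SNORD90 was at 2.27 and 1.53. Its ratios reduced to 16 IP reads to 1 input read and to 8 to 5, with intervals of -0.42 to 7.66 and -0.26 to 3.49. Both intervals include 0, but they are at their widest, since the true reads may be a multiple. The authors' −log10 p was 3.61 and 1.11. SNORD1A was at medians of 0.93 and 1.12, SNORD103C at 1.05 and 1.66, SNORD14D at 0.69 and 0.18, and SNORD72 at 0.93 and 0.23. In replicate 2 the intervals of these 4 genes' clusters also include 0, with -0.86 to 3.17 for SNORD1A (reduced ratio 6 IP to 5 input reads) and -0.31 to 3.88 for SNORD103C (7 to 4). The authors' −log10 p was 1.44 for that SNORD1A cluster and 3.71 for that of SNORD103C. The remaining gene, SNORD118, is U8, which acts in the maturation of the large ribosomal subunit's RNA.

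SNORD118 (chr17:8173452-8173588, minus strand) had 4 clusters in replicate 1, at log2 folds of 0.97, 0.31, 1.40 and 0.08 from the 5′ end. In replicate 2 it had 2, at 0.68 and 0.67. All 6 were above 0. The intervals of the 0.97, 1.40 and 0.68 clusters lay wholly above 0 (0.66 to 1.30, 0.67 to 2.22 and 0.33 to 1.03), those of the other 3 included it. Of these, the 0.67 cluster had an authors' −log10 p of 3.95, near the 4.04 of the 0.68 cluster. Its ratio reduced to 22 IP and 25 input reads, so its interval is at its widest. None reached the log2 fold of 3.

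SNORD118 belongs to a list of 15 snoRNAs that act in the cutting of the ribosomal RNA precursor: the U3, U8, SNORD13, SNORD14 and SNORD22 genes and the H/ACA genes SNORA73A and SNORA73B. Of these, 13 had a cluster in replicate 1 and 12 in replicate 2. The gene median was below 0 for 9 and 10 of them, with 0 genes enriched. SNORD3A, a U3 gene and the most abundant of them, had 2 clusters in each replicate, at log2 folds of -1.45 and -1.45 in replicate 1 and -1.25 and -1.25 in replicate 2. These rested on up to 48933 input reads and 11387 IP reads in replicate 2, and were among the most precise values, with an interval of -1.28 to -1.22. U3 was therefore below input in both replicates, although it gave many IP reads. The U3 genes are near-identical copies, so the split among them is uncertain. SNORA73A was at -0.42 and -2.27.

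The imprinted snoRNAs of chromosomes 14 and 15 gave almost no clusters. Of 123 genes of the SNORD64, SNORD107 to SNORD109, SNORD113, SNORD114, SNORD115 and SNORD116 groups, 1 had a cluster in replicate 1 (SNORD114-3) and 1 in replicate 2 (SNORD114-25). SNORD114-3 was at a log2 fold of -1.15 from 3 IP and 2 input reads, with an interval of -4.28 to 2.43. SNORD114-25 had 2 clusters, both at 2.44 from a reduced ratio of 3 IP reads to 1 input read, with an interval of -1.20 to 8.15. Because clusters need IP reads, these lists do not give the level of the other genes.

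The order of snoRNA genes was similar in the replicates. Of 246 snoRNA genes with clusters in both, 203 had a median below 0 in both and 152 were low in both. Across these genes, the medians correlated with a Pearson's r of 0.83 and a Spearman's rho of 0.82, as a description: genes of a replicate share their 2 libraries and some share reads. The gap between the families was narrower in replicate 2: the SNORA minus SNORD difference in the median over genes was -2.87 in replicate 1 and -1.38 in replicate 2. Of 142 SNORD genes, 131 had the lower fold in replicate 2, with a median difference (replicate 2 minus replicate 1) of -1.26. Of 102 SNORA genes, 45 had the lower fold in replicate 2 and 57 the higher, with a median difference of 0.11. Over all clusters the median was higher in replicate 2, which was also the list with fewer clusters and the lower IP depth relative to input. The part of depth in this difference was not tested.

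**Figure D2:**
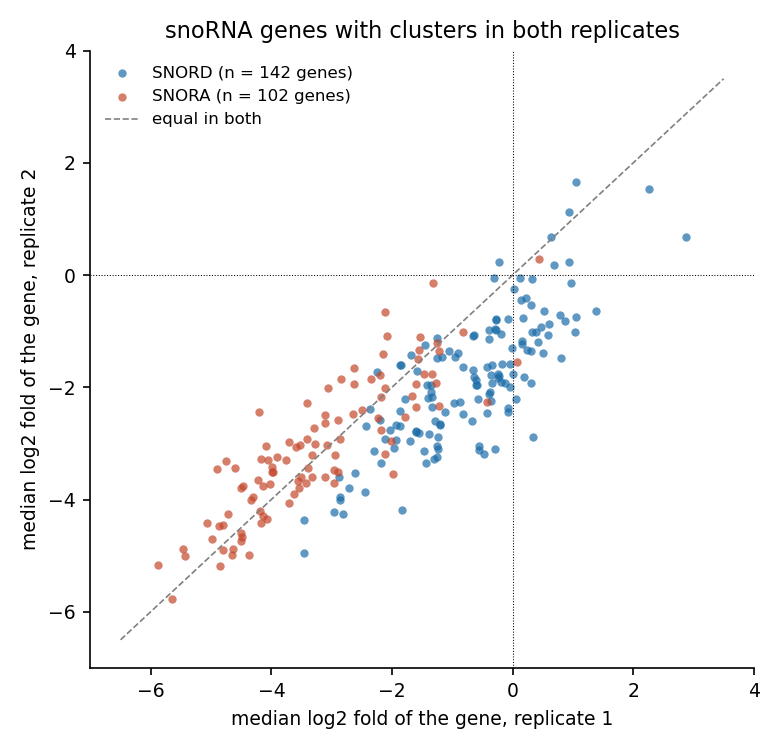
Each point is a snoRNA gene with clusters in both replicates, placed by its median log2 fold in replicate 1 (horizontal) and replicate 2 (vertical); the dashed line marks equal values. Of the 142 SNORD genes, 131 lie under the line, and the 102 SNORA genes lie on both sides of it.

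Input depth moved with the fold, so the families were compared within ranges of input reads. With 100 to 999 input reads, the median log2 fold was -3.22 for SNORA, -1.35 for SNORD and -0.26 for clusters outside snoRNA genes in replicate 1. It was -2.74, -1.96 and -1.01 in replicate 2. With 1000 or more, it was -4.42, -2.01 and -1.22 in replicate 1 and -4.10, -2.74 and -1.29 in replicate 2. SNORA clusters lay below SNORD clusters in all 4 ranges of both replicates. In the range of 10 to 99 reads of replicate 1, SNORD clusters (-0.32) lay above those outside snoRNA genes (-0.70). At 1 to 9 reads of that replicate they were at 0.03, beside 0.14 outside. In replicate 1, SNORD clusters thus lay clearly below other clusters of like input only at 100 reads or more. The range of 1 to 9 reads in replicate 2 held only 12 SNORD and 2 SNORA clusters.

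**Figure D3:**
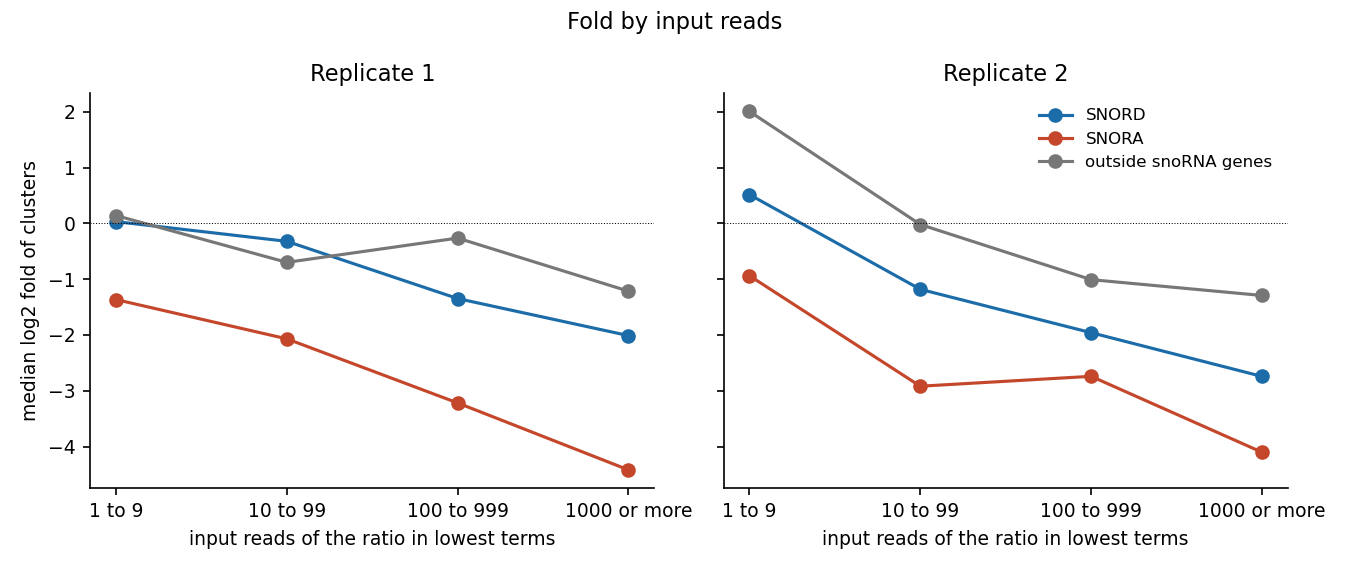
The horizontal axis gives ranges of input reads of the reduced ratio and the vertical axis the median log2 fold of the clusters in each range, for SNORD, SNORA and clusters outside snoRNA genes. The SNORA line is lowest in every range, for example -3.22 and -2.74 at 100 to 999 reads.

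The RNAs of the families also differ in length, with a median of 78 bases for the SNORD genes and 134 for the SNORA genes in replicate 1. Among genes of at least 120 bases, the 15 SNORD genes had a median log2 fold of -0.15 and the 114 SNORA genes -3.31 in replicate 1. In replicate 2 the 11 SNORD genes were at -0.80 and the 103 SNORA genes at -3.20. The gap between the families was therefore present among RNAs of that length too. SNORD genes under 120 bases were at -0.56 and -1.92.

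Cajal body RNAs hold both box types and lie outside the rule, so the box types could be set side by side in other genes. Their box types were assigned from general knowledge after the files were seen. SCARNA21B, SCARNA26A, SCARNA27 and SCARNA28 were left unassigned and are not part of the ranges below. The medians of these 4 genes lay between -4.14 and 2.38 in replicate 1 and between -2.55 and 0.03 in replicate 2. The 5 box C/D genes (SCARNA2, SCARNA7, SCARNA9, SCARNA9L and SCARNA17) had gene medians between 0.35 and 1.09 in replicate 1 and between -1.15 and 0.19 in replicate 2. The 4 mixed genes (SCARNA5, SCARNA6, SCARNA10 and SCARNA12), which carry both kinds of box, were between -1.30 and -0.05 and between -1.93 and -0.93. The box H/ACA genes were between -4.56 and -0.75 in replicate 1 (14 genes) and between -5.34 and -0.70 in replicate 2 (12 genes). By gene median, in replicate 1 the C/D genes did not overlap either other type, and mixed and H/ACA genes overlapped. By cluster the types did overlap there. The lowest C/D cluster was at 0.15, the highest mixed one at 1.86 and the highest H/ACA one at 0.41. In replicate 2 the ranges of all types overlapped their neighbours.

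SCARNA2, at a median of 1.09 and 0.07, and SCARNA7, at 0.50 and -0.70, were the best covered of the C/D type. SCARNA8 (-4.56 and -5.34) and SCARNA11 (-4.50 and -4.80), of the H/ACA type, were the lowest. SCARNA16, of the same type, ranged from -4.53 to 0.41 in replicate 1. By cluster, the median was 0.98 and -0.01 for C/D, -0.53 and -1.37 for mixed, and -2.68 and -3.16 for H/ACA. All SCARNA clusters together had a median of -0.08 and -1.18. The median for the whole symbol group thus lay between those of its box types. SCARNA9 and SCARNA9L are close copies and their values are uncertain.

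**Figure D4:**
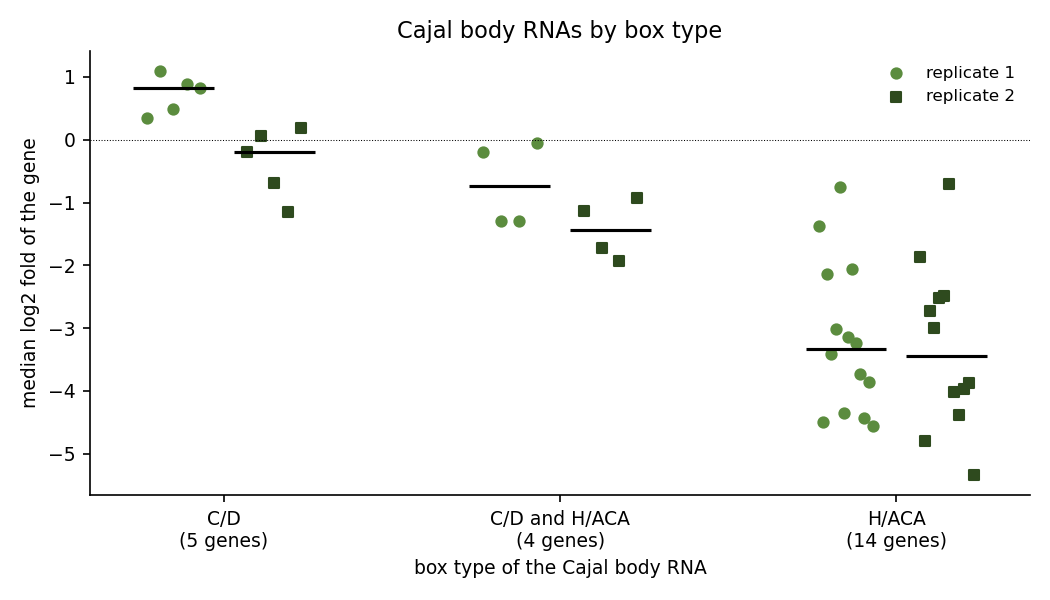
Each point is a Cajal body RNA gene, placed by its box type and its median log2 fold, with circles for replicate 1 and squares for replicate 2; bars are medians over genes. C/D genes lie between 0.35 and 1.09 in replicate 1 and H/ACA genes between -4.56 and -0.75. The 4 genes without an assigned box type are not shown.

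Other short RNAs gave different levels. Clusters in snRNA genes had a median log2 fold of -0.47 and -1.64, and those in tRNA genes 1.34 and 0.69. Of the reproducible peaks, 14 lay in tRNA genes and 0 in snRNA, SCARNA or snoRNA genes. Clusters of tRNA genes thus lay above input in both replicates by their median, unlike those of snoRNA genes. Against all clusters, their median was higher in replicate 1 (0.07 for all clusters) but lower in replicate 2 (1.85). In replicate 2, 40.6% of tRNA clusters were below 0, beside 9.68% of all clusters.

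Host transcripts gave a comparison at the same loci. Of the 304 snoRNA genes with a cluster, 290 lay in the span of another gene, 170 hosts in all. The median log2 fold of the host's clusters outside snoRNAs was taken as its level. In replicate 1, 124 of 154 SNORD genes and 105 of 110 SNORA genes lay below their host, with a median difference (snoRNA minus host) of -1.34 and -3.68. In replicate 2, 115 of 120 SNORD genes and 86 of 87 SNORA genes did, with a median difference of -2.45 and -4.12. Several snoRNAs share a host, so these genes are not independent. Host and snoRNA clusters were also not matched in input reads. Outside snoRNA genes, the median fold was 0.14 and 2.01 at 1 to 9 input reads and -0.26 and -1.01 at 100 to 999. The part of input depth in the difference from the host was not tested.

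**Figure D5:**
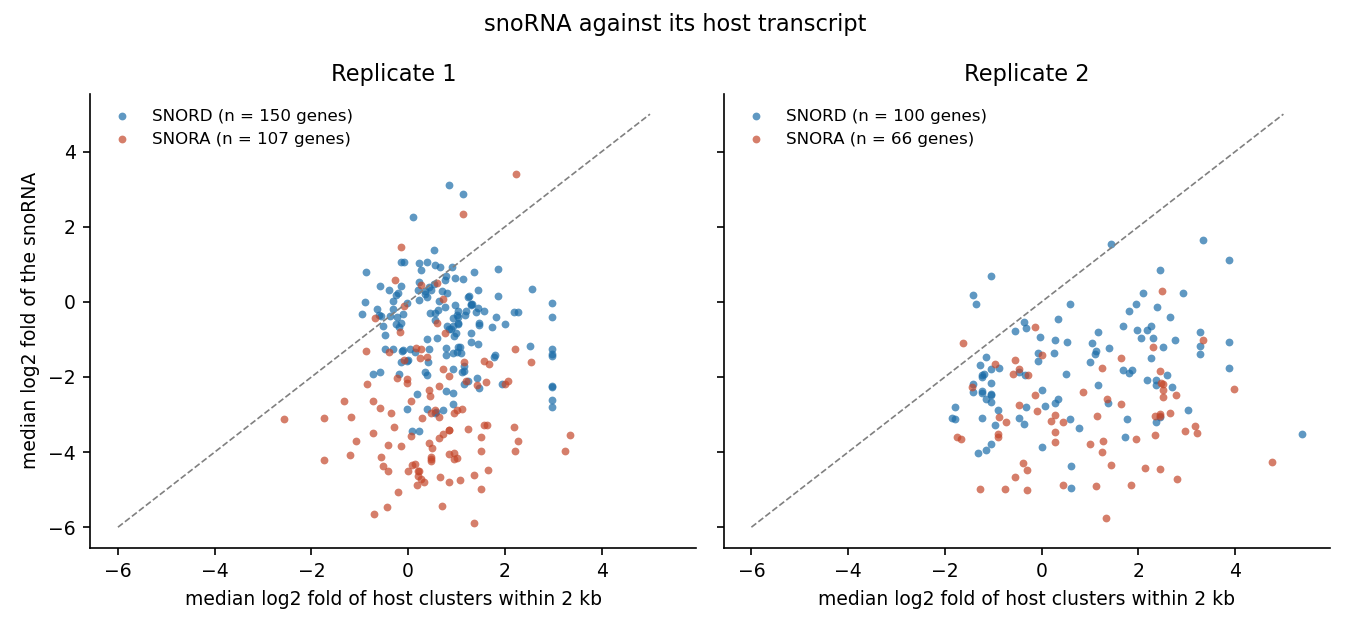
Each point is a snoRNA gene, placed by the median log2 fold of host clusters within 2 kb (horizontal) and its own median log2 fold (vertical); the dashed line marks equal values. Most points lie under the line: 121 of 150 SNORD and 101 of 107 SNORA genes in replicate 1, and 96 of 100 and 65 of 66 in replicate 2.

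Hosts that carry both families allow the families to be compared within 1 transcript. In replicate 1, SNORA genes had the lower median in 10 of 12 such hosts, and in replicate 2 in 7 of 10. The SNORA minus SNORD difference over these hosts had a median of -1.77 and -0.57. The next 3 hosts were picked after their values were seen and have the largest gaps of replicate 2, while NCL, counted among the 7, was at -1.94 for SNORD and -1.95 for SNORA there. In SNHG12, a noncoding host, SNORD99 was at a log2 fold of 0.32 and -1.02, and its 3 SNORA genes at a median of -4.03 and -3.73. In RPL21, a ribosomal protein gene, SNORD102 was at -0.65 and -1.69 and SNORA27 at -4.37 and -4.98. In EIF4A1, a translation factor gene, SNORD10 was at -0.27 and -0.80 and its SNORA genes at -3.44 and -3.69. The exceptions were CCNB1IP1 and GAS5 in replicate 1 and EEF1B2, RPL5 and TAF1D in replicate 2. In GAS5 the SNORA value came from SNORA103 alone, whose ratio reduced to 17 IP reads to 1 input read. The authors' −log10 p of that cluster was 6.72, and its true reads may be a multiple. In TAF1D, where 6 SNORA and 2 SNORD genes lie, the medians were -3.77 and -1.72 in replicate 1, and -3.45 and -3.71 in replicate 2.

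Reproducible peaks were found near snoRNAs but not in them. In the authors' list, 58 of the 1717 peaks lay in 17 of the 170 hosts. The share of other genes with a peak was not counted. Over all 1717 peaks, and with snoRNAs without a cluster included, 8 snoRNAs had 1 of 7 peaks within 1000 bases. The nearest was 67 bases from SNORD88C, which had no assigned host, with a log2 fold of 3.72. The next was 72 bases from SNORA18 in TAF1D, at chr11:93733669-93733691, with a log2 fold of 4.34. SNORA18 thus has a peak above input close by, while the SNORA genes of that host had medians below input in both replicates. SNORD73A in RPS3A was 198 bases from a peak at 3.72.

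Genes for the proteins of snoRNA particles were read from a list of 8: FBL, NOP56, NOP58 and SNU13 for box C/D, and DKC1, NHP2, NOP10 and GAR1 for box H/ACA. Clusters were found in 8 of them in replicate 1 and 7 in replicate 2, snoRNAs inside those genes included. In replicate 1, 3 of their 208 clusters (1.44%) were enriched, beside the 1.39% of all clusters, and all 3 lay in DKC1, the dyskerin gene. In replicate 2, 8 of 90 (8.89%) were enriched, beside 12.8%, of which 7 lay in NOP58 and 1 in SNU13. These shares were near or below those of all clusters. No gene of the list was enriched in both. Marker genes of K562 had clusters in 8 of 8 genes in both replicates. Of 6 hepatocyte markers of HepG2, the other line named in the protocol, 1 had a cluster in replicate 1 and 0 in replicate 2.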

How the data were processed

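ADAR was immunoprecipitated by eCLIP in K562 cells. The submitters' processing notes name cutadapt 1.9 and STAR 2.4.0i. The sources used here do not name the peak caller or the way replicates were combined. The authors deposited a −log10 p-value per cluster for excess in the IP, which reaches at most 400. They also deposited a log2 fold of IP over input, which by its values was divided by a depth per library. Coordinates fit GRCh38, with clusters on chromosome 17 up to 83224967.

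Members and lists were chosen with earlier results of these data known. Clusters were assigned by midpoint to RefSeq spans of GRCh38.p14, which carry no strand or exons, so the strand is the cluster's. Read ratios were recovered with the smaller of the IP and input numbers at most 20000. Of all folds, 99.9998% and 100% fell on such ratios, and 0.635% and 0.314% of shifted folds did. The commonest fold was taken as 3 IP reads to 1 input read. The authors' −log10 p was then matched for 98.2% and 98.8% of 3000 clusters per list. A match could come from a binomial or a chi-square test, at any of several small multiples of the ratio. It had to lie within 0.02, or within a wider limit at large −log10 p. These clusters were drawn from those with a −log10 p above 3, the highest values left out. The recovery was tested on simulated data, with read numbers smaller than the largest ones here. Total reads per library are unknown.

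Named genes are those with an enriched cluster, those of the fixed lists, and the 5 lowest folds with a −log10 p of at least 3. That last part can only name positive folds (in replicate 1 the lowest was SNORD133, at 0.26, and in replicate 2 SNORA74A, at 0.45), so genes of low fold were added after their values were seen. Alternatives varied the thresholds, the overlap rule, the reads and widths required, and the replicate used. Python 3.11.15, numpy 2.4.6, pandas 2.3.3 and scipy 1.17.1 were used.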

Additional observations from a re-analysis of the deposited data

How the results depend on the processing

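Of 75 alternative values, 62 stayed within the spread between replicates (for medians), within the binomial interval (for shares) or within 1.5 times (for counts), and 13 moved. At a log2 fold of at least 2, replicate 1 had 6 enriched clusters and 6 snoRNA genes were enriched in any replicate. At a fold of at least 4, both counts were 0. With a replicate left out, genes enriched in any replicate, and genes enriched in both, ranged from 0 to 2. The median of SNORA clusters in replicate 1 was -3.43 with denominators of at least 100 and -3.30 with widths of at least 20 bases. That of SNORD clusters in replicate 1 went from -0.57 to -1.39 with denominators of at least 100 and to -0.33 with the highest cluster of each gene, both within the wide spread between replicates for that family. That of SCARNA clusters in replicate 1 was -1.64 with the highest cluster of each gene and -1.24 with widths of at least 20 bases (the 5 C/D genes hold 40 of the 125 clusters, with a median width of 10 bases). At a limit of -2, low clusters made up 39.0% in replicate 1 and 56.7% in replicate 2. With denominators of at least 5, they made up 65.0% in replicate 1. All 20 alternative medians of SNORD and SNORA clusters were negative. The settings on denominators of 100, on widths, on position and on low clusters were chosen after seeing the data. No paired analysis was possible because the lists hold no value per library: each fold already sets an IP against an input.

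The lists start from IP reads, so snoRNAs without them are not measured. Clusters of few input reads have intervals several log2 units wide.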

Other observations

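SCARNA28, whose box type was not assigned, stood above the other Cajal body RNAs in replicate 1. Its 10 clusters there had a median log2 fold of 2.38 (1.49 to 3.66), and the 3 enriched SCARNA clusters of that replicate all lay in it. In replicate 2 its single cluster, over 187 bases, was at 0.03, from 98 IP and 173 input reads.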
